A study of Homo sapiens with 32 samples.

Results

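The 10 genes described here were chosen by name from the YAP/TEAD pathway of MCF10A cells, a non-tumorigenic immortalized human mammary epithelial cell line. They are the coactivator genes YAP1 and WWTR1 (TAZ), the transcription factor genes TEAD1 and TEAD4, the regulator genes LATS2, AMOTL1 and AMOTL2, and the target genes CCN1 (CYR61), CCN2 (CTGF) and ANKRD1. All 10 were present among the 17788 genes of the count table and all 10 passed the filter on low counts. RNA-seq was performed on 32 libraries in 8 groups of 4, namely JUNB wild-type (WT) and JUNB mutant (mut) cell clones that received solvent or TGFβ1 at 5 ng/ml for 6, 24 or 72 h. The WT group comprised clones 27 and 2, which had been through the CRISPR/Cas9 procedure and single-cell cloning, and the mut group comprised clones 1 and 65, which carry extended deletions in JUNB. The samples are labelled as knock-out, but the study described a smaller JUNB polypeptide in mut clones. Each clone was treated in 2 replications, so that a group holds 2 clones with 2 libraries each. The p-values rest on the spread between the libraries within a group (4 libraries of 2 clones), pooled over all 8 groups. A difference between genotypes cannot be told apart from a difference between the 2 pairs of clones. The solvent was bovine serum albumin in phosphate-buffered saline, and the samples that GEO labels as time 0 are the solvent controls.

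In the Hippo pathway, the kinases LATS1 and LATS2 phosphorylate the coactivators YAP and TAZ and keep them out of the nucleus, and angiomotin family proteins (AMOT, AMOTL1, AMOTL2) bind YAP and TAZ and hold them in the cytoplasm or at cell junctions. When YAP and TAZ enter the nucleus they bind TEAD transcription factors, which recognize the core sequence GGAATG, often together with AP-1 factors such as JUNB. CCN1, CCN2, ANKRD1, AMOTL2 and LATS2 are textbook targets of this complex, so that AMOTL2 and LATS2 are both targets and inhibitors. In mammary epithelial cells, YAP and TAZ respond to cell density and to the mechanics of the substrate, and CCN2 is also a classical TGFβ target.

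The promoter windows given by RefSeq (GRCh38.p14) were searched for the TEAD core. Windows of 250 bases before the transcript start were present for 7 of the 10 genes (9 windows, 2 each for AMOTL2 and WWTR1). Of the 10 genes, CCN2 had the largest log2 change with TGFβ1 and ANKRD1 the largest log2 difference between genotypes. Their windows, which also held the most matches among the 7 genes, are shown. Both are on the minus strand, at chr6:131951373-131951622 and chr10:90921088-90921337, and are written 5′ to 3′ in the direction of transcription with the TEAD core in capitals.
CCN2: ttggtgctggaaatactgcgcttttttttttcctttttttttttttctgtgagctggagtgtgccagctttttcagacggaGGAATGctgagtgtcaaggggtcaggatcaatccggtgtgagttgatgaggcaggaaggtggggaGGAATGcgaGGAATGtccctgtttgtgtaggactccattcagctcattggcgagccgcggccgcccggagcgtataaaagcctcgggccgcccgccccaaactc
ANKRD1: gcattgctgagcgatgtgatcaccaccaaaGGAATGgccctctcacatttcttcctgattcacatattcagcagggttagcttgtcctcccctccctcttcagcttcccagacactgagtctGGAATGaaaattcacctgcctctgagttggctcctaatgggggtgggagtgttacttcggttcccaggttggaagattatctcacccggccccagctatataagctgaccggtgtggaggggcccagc
The TEAD core was present 3 times in the CCN2 window, with first bases at -169, -104 and -95 relative to the transcript start, and 2 times in the ANKRD1 window, at -220 and -128. One match each was present in 1 of the 2 AMOTL2 windows (at -69) and in the YAP1 window (at -162). No match was present in the windows of LATS2, AMOTL1 and WWTR1. Among all 35116 promoter windows of this length, 11.9% held at least 1 match on either strand, 0.94% held at least 2 and 0.0826% held at least 3. The AP-1 letters TGANTCA, searched with any central base N, were present in 6.57% of all windows. Among the 7 genes they were present only in ANKRD1 (at -195), where they read TGATTCA with T as the central base. The SMAD palindrome GTCTAGAC was present in 0.182% of all windows and in none of the 9. Only this full palindrome was searched, so its absence does not cover shorter SMAD sequences. A match of letters is a description of these windows and not a measured binding site.

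Library totals ranged from 39702412 to 54651906 counts, and values are given as counts scaled to a common library total (CPM). The TGFβ1-treated WT libraries at 24 and 72 h held a lower median over all genes than the solvent libraries under this scaling. The median log2 fold change of all 14865 tested genes was -0.18 at 24 h and -0.19 at 72 h in WT, against -0.098 and -0.087 in mut, and 0.10 for the interaction at 72 h. With TMM (trimmed mean of M-values) factors these medians lay between -0.03 and 0.02, which added between 0.16 and 0.18 to the WT changes at 24 and 72 h, so that small decreases have to be read against this shift. Among the genes called in WT at 24 and 72 h, 27.1% and 26.5% were higher with library-size scaling and 50.3% and 48% with TMM factors, and for the interaction at 72 h the share fell from 76.3% to 52.2%. Single libraries stood apart for several of the 10 genes. Series 27-2 was the highest of WT for CCN1 in all 4 states, and the mut 72 h library of series 65-2 was the lowest of its group for every gene but CCN2, so that values without these libraries are given where they change a call. JUNB mRNA does not check the labels, because the mut clones still transcribe the gene: it ranged from 89.7 to 117 CPM in WT solvent and from 69.2 to 172 CPM in mut solvent libraries. All 8 markers of mammary epithelium were present. Their summed level was higher in mut than in WT clones in each state without overlap of libraries (in solvent 10480 to 12591 CPM in mut and 7095 to 9480 CPM in WT, at 72 h 8960 to 11819 and 5798 to 8864 CPM), and the part of this in the genotype differences described below was not tested. KRT5 and KRT17 made up most of the sum. KRT5 alone of the 8 separated the genotypes in all 4 states, while KRT14, TP63 and CDH1 overlapped in each state. Of 11 markers of other cell types 7 were in the table, with a summed level between 16.8 and 34.4 CPM. Nearly all of this came from the myeloid markers CD14 (2.29 to 28.1 CPM) and CD68 (5.64 to 24.4 CPM). CD14 was higher and CD68 lower in mut than in WT clones in each state without overlap (in solvent 25.7 against 14.9 CPM and 6.57 against 12.3 CPM in the mean), and their part in the genotype differences was not tested. ESR1 reached 1.22 CPM, and the other 4, PTPRC, CD3E, VWF and DES, did not exceed 0.241 CPM in any library. As these are bulk libraries, fewer cells with a transcript and less transcript per cell cannot be told apart.

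Per kb of exon, YAP1 was the most abundant of the 10 transcripts in solvent, at 55.4 ± 2.52 CPM per kb (SD, n = 4) in WT and 58.3 ± 3.83 in mut. In WT solvent, AMOTL1 (20.2 ± 0.554 CPM per kb), CCN2 (18.6 ± 10.8), CCN1 (18.2 ± 9.44), TEAD1 (16.4 ± 1.54) and AMOTL2 (16.2 ± 3.31) followed, and these neighbours did not differ beyond their spread. TEAD4 (12.4 ± 0.619 CPM per kb) and WWTR1 (11.7 ± 0.985) came next and lay within each other's spread. LATS2 (6.67 ± 0.825 CPM per kb) and ANKRD1 (0.759 ± 0.224) closed the order. Under TGFβ1, CCN2 passed YAP1 in the mean from 24 h on in WT and from 6 h on in mut. It reached 57.1 ± 9.84 CPM per kb in WT and 73.4 ± 4.47 in mut at 24 h, when YAP1 was at 48.1 ± 3.78 and 52.7 ± 3.85. In WT both lay within their spread at 24 h. LATS2 and TEAD4 changed places in WT: TEAD4 was at 8.05 ± 1.00 CPM per kb at 24 h and LATS2 at 8.54 ± 0.516, again within the spread.

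**Figure D1:**
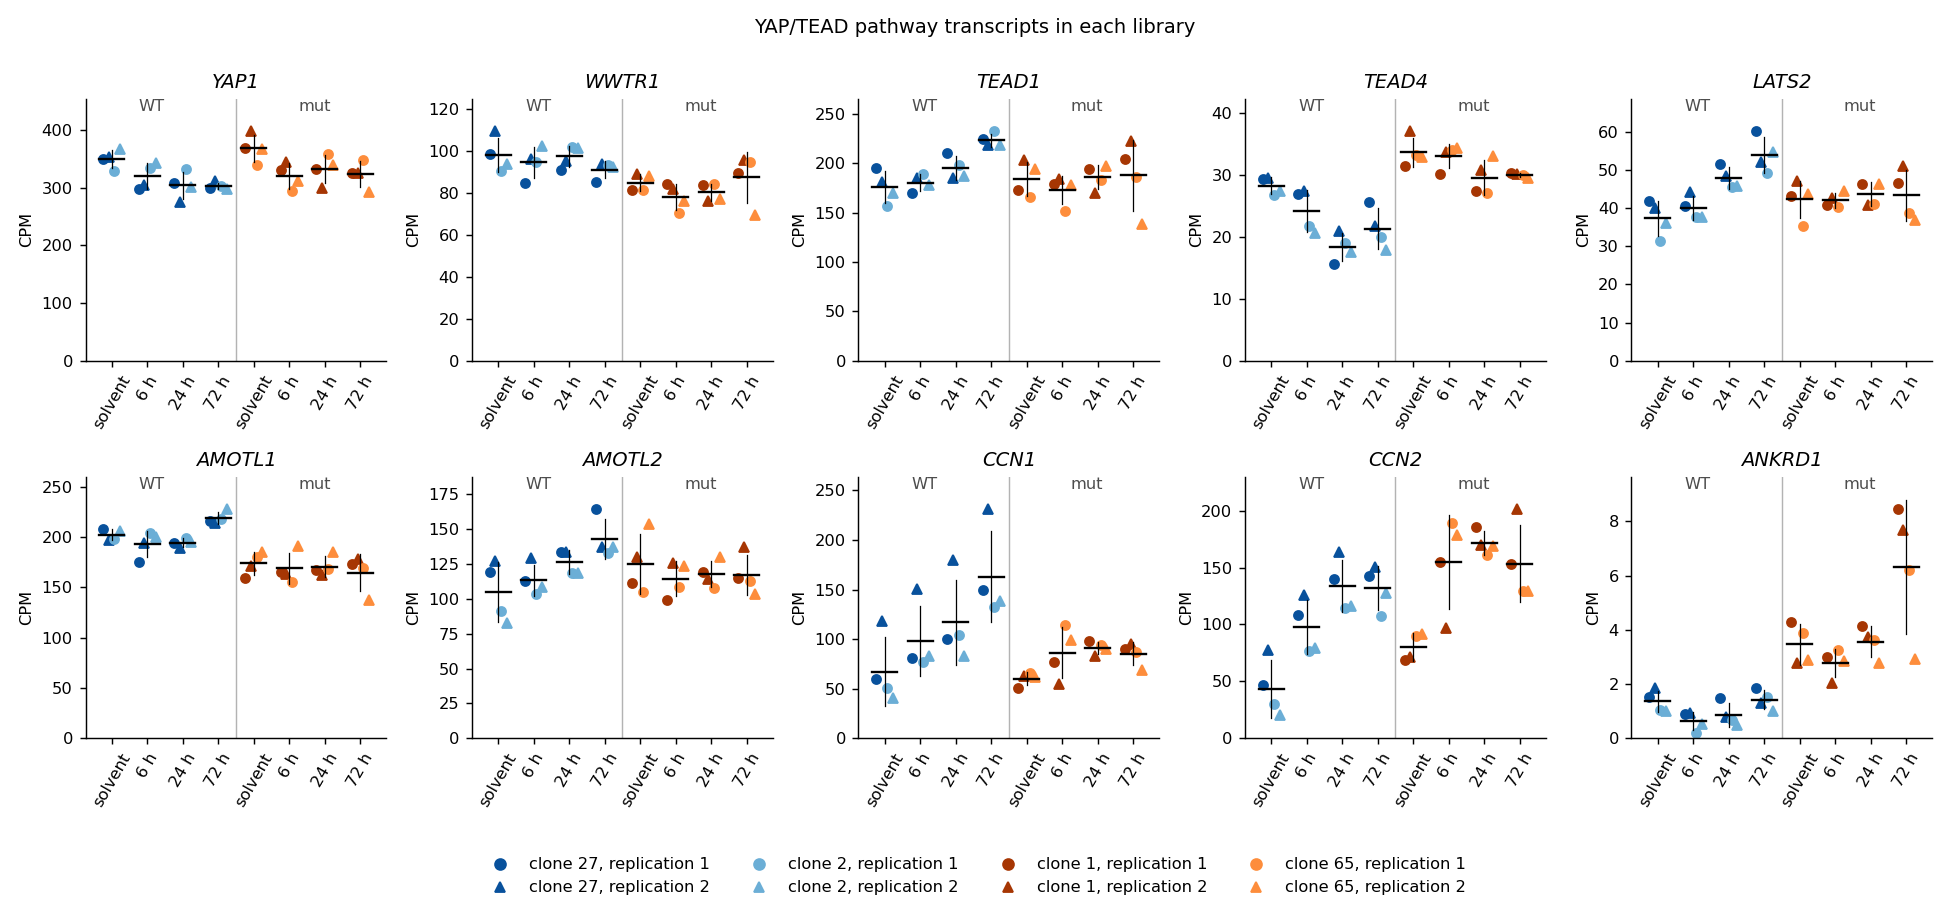
Level of each of the 10 transcripts in all 32 libraries (CPM, linear axis from 0). Colours mark the clone, symbols the replication, the horizontal bar is the mean and the vertical line 1 SD (n = 4). In WT, CCN1, CCN2, AMOTL2, LATS2 and TEAD1 lie higher at 72 h than in solvent, and TEAD4 lies lower. The WT mean of CCN2 is level from 24 to 72 h, and that of TEAD4 is lowest at 24 h. In mut, ANKRD1 lies above WT in every state.

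TGFβ1 raised CCN2 in both genotypes and CCN1, AMOTL2, LATS2 and TEAD1 in WT clones, and lowered TEAD4 in WT clones (limma-voom, Benjamini-Hochberg adjusted p under 0.05 over all tested genes, called here). The rise of CCN1 in mut clones was not called in this fit, but it was called with a block by series, given below. At 6 h in WT, 1 of the 10 genes was higher (CCN2) and 0 were lower, where 5.13% of all tested genes were called higher and 11.9% lower. At 24 h 4 were higher (CCN1, CCN2, AMOTL2, LATS2) and 2 lower (YAP1, TEAD4), against 14.1% higher and 38% lower of all genes, and at 72 h 5 were higher (CCN1, CCN2, AMOTL2, LATS2, TEAD1) and 2 lower (YAP1, TEAD4), against 13.9% and 38.4%. With TMM factors 5 were higher and 1 lower at 24 h, where 23.5% of all genes were called higher and 23.2% lower, and 6 were higher and 1 lower at 72 h, against 21.5% and 23.3%. In mut clones, 1 was higher and 0 were lower at 6 h (background 2.06% higher, 4.94% lower) and at 24 h (6.75% and 17.1%). At 72 h 2 were higher (CCN2, ANKRD1) and 1 lower (YAP1), where 7.81% of all genes were called higher and 16.3% lower, and with TMM factors 2 were higher and 0 lower, against 10.7% and 9.91%. The median log2 fold change of the 10 genes at 72 h was 0.23 in WT and 0.02 in mut, beside -0.19 and -0.087 over all genes. When the series of cultures (1 clone in 1 replication) was fitted as a block, the count rose to 2 higher and 2 lower at 6 h in WT, to 2 higher and 1 lower at 6 h in mut, and to 2 higher at 24 h in mut. The share of all genes called with this block is not given, so these counts have no background beside them. CCN1 was the raised gene that this block added in mut clones, with adjusted p = 0.018, 0.00144 and 0.00608 for 6, 24 and 72 h. After 72 h the raised genes of mut clones were thus 3 (CCN1, CCN2, ANKRD1), while YAP1 remained the only lowered gene.

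CCN2 (GRCh38 chr6:131948176-131951372, minus strand) encodes a secreted matricellular protein (connective tissue growth factor). In WT solvent it was at 46.4, 77.8, 29.7 and 20.0 CPM in series 27-1, 27-2, 2-1 and 2-2, in that order throughout the text, and at 6 h at 109, 126, 76.7 and 79.7 CPM. It was at 140, 163, 115 and 116 CPM at 24 h and at 143, 151, 107 and 128 CPM at 72 h. Both libraries of clone 27 lay above both of clone 2 in each state, and from 24 h on no treated library overlapped the solvent libraries. On the log2 scale it was up by 1.32 ± 0.26 (SE) at 6 h (adjusted p = 0.000712), 1.79 ± 0.26 at 24 h (adjusted p = 1.42e-06) and 1.77 ± 0.26 at 72 h (adjusted p = 1.93e-06). The rise was thus in place by 24 h, and the difference between 72 and 24 h in WT was -0.01 ± 0.24 on the log2 scale.

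In mut clones, series 1-1, 1-2, 65-1 and 65-2 (again in this order throughout) started from 68.8, 71.0, 90.2 and 91.3 CPM of CCN2 in solvent. They reached 155, 97.3, 190 and 179 CPM at 6 h, 186, 170, 161 and 169 CPM at 24 h and 153, 202, 129 and 130 CPM at 72 h. No treated library overlapped the solvent libraries, although the value of series 1-2 at 6 h lay close to the highest of them. The log2 fold changes were 0.92 ± 0.24 at 6 h (adjusted p = 0.019), 1.10 ± 0.24 at 24 h (adjusted p = 0.00132) and 0.92 ± 0.24 at 72 h (adjusted p = 0.0052). The call at 6 h was lost without any 1 of 4 libraries (mut solvent 1-1 or 1-2, mut 6 h 65-1 or 65-2), with adjusted p-values between 0.0653 and 0.103, and that at 72 h was lost without series 1-2 (log2 fold change 0.73, adjusted p = 0.0536).

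CCN2 was 1.06 ± 0.26 higher on the log2 scale in mut than in WT clones in solvent (43.5 ± 25.3 CPM in WT and 80.4 ± 12.1 CPM in mut, SD, n = 4, adjusted p = 0.00699), with series 27-2 inside the mut range. At 6 h it was 0.65 ± 0.24 higher (adjusted p = 0.0477), and at 24 and 72 h the differences of 0.37 ± 0.23 and 0.20 ± 0.24 did not pass the test. The call at 6 h was lost with TMM factors (adjusted p = 0.0648) and without any 1 of 5 libraries (WT 6 h 2-1 or 2-2, mut 6 h 1-1, 65-1 or 65-2, adjusted p from 0.0773 to 0.15). The increase by TGFβ1 was smaller in mut than in WT clones by 0.40, 0.68 and 0.85 in the mean at 6, 24 and 72 h, but as interactions these were not called, with -0.85 ± 0.35 at 72 h (adjusted p = 0.113). With the series as a block the interaction at 72 h was -0.80 (adjusted p = 0.0315). It was also called without series 27-2 (-1.11, adjusted p = 0.02) and without the WT solvent library of that series (-1.17, adjusted p = 0.0153), which was the highest for CCN2 in its group.

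CCN1 (chr1:85580761-85584589, plus strand) encodes a related matricellular protein. Per library, WT solvent held 59.3, 118, 50.7 and 40.8 CPM, those at 6 h 80.6, 151, 76.8 and 83.01 CPM, those at 24 h 99.8, 180, 105 and 83.2 CPM, and those at 72 h 150, 231, 133 and 139 CPM. Series 27-2 was the highest in all 4 states, and within each series the level climbed from solvent to 72 h. At 72 h even the lowest WT library exceeded the highest of the solvent libraries. The log2 fold change was 0.61 ± 0.27 at 6 h (adjusted p = 0.121), 0.86 ± 0.27 at 24 h (adjusted p = 0.00746) and 1.37 ± 0.26 at 72 h (adjusted p = 8.18e-05). Without series 27-2 the change at 6 h was called (0.68, adjusted p = 0.0112, and 0.91, adjusted p = 0.0143, without its solvent library alone). At 24 h the change was 0.94 without the whole series (adjusted p = 0.000115) and 0.63 without its library of 24 h alone (adjusted p = 0.0503).

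In mut clones, CCN1 was at 50.5, 62.7, 66.0 and 61.8 CPM in solvent, at 77.3, 55.1, 114 and 99.0 CPM at 6 h, at 98.01, 82.9, 93.9 and 89.5 CPM at 24 h and at 90.2, 95.5, 87.1 and 68.7 CPM at 72 h. At 24 and 72 h all mut libraries lay above all solvent libraries of mut, while at 6 h series 1-2 lay below its own solvent value. The changes of 0.48 ± 0.27, 0.60 ± 0.27 and 0.50 ± 0.27 at 6, 24 and 72 h did not pass the test (adjusted p = 0.284, 0.0998 and 0.176). With the series as a block, all 3 were called, at 0.49, 0.60 and 0.50 (adjusted p = 0.018, 0.00144 and 0.00608). The block also added the call of WT at 6 h (0.59, adjusted p = 0.00258).

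At 72 h CCN1 was lower in mut than in WT clones by a log2 difference of -0.91 ± 0.26 (163 ± 46.1 CPM in WT and 85.4 ± 11.7 CPM in mut, adjusted p = 0.00577), with no overlap of libraries. In solvent, at 6 h and at 24 h the genotypes overlapped, with differences of -0.04 ± 0.27, -0.17 ± 0.26 and -0.30 ± 0.26. The interaction at 72 h was -0.86 ± 0.37 (adjusted p = 0.13). When series was a block it was -0.84 (adjusted p = 0.00292), and without series 27-2 it was -0.99 (adjusted p = 0.00639), or -1.17 without the WT solvent library of that series alone (adjusted p = 0.0247). Each of the 4 mut series rose less at 72 h (0.15 to 0.84 on the log2 scale) than each WT series (0.97 to 1.76).

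ANKRD1 (chr10:90912096-90921087, minus strand) encodes an ankyrin repeat protein induced by stretch in muscle and was by far the least abundant of the 10 transcripts, at 8 to 447 counts per library. WT libraries held 1.51, 1.86, 1.06 and 1.01 CPM in solvent, then 0.893, 0.931, 0.199 and 0.537 CPM at 6 h, 1.5, 0.766, 0.664 and 0.505 CPM at 24 h, and 1.85, 1.29, 1.54 and 1.01 CPM at 72 h. Mut libraries held 4.30, 2.79, 3.89 and 2.88 CPM in solvent, then 2.99, 2.03, 3.25 and 2.85 CPM at 6 h, 4.14, 3.72, 3.62 and 2.76 CPM at 24 h, and 8.46, 7.70, 6.20 and 2.91 CPM at 72 h. Every mut library lay above every WT library of the same state, and at 72 h 3 of the 4 mut series stood well above their other states while series 65-2 stayed at its solvent level. The log2 difference between mut and WT was 1.36 ± 0.37 in solvent (adjusted p = 0.0144), 2.28 ± 0.50 at 6 h (adjusted p = 0.00129), 2.09 ± 0.43 at 24 h (adjusted p = 0.000414) and 2.10 ± 0.34 at 72 h (adjusted p = 1.76e-05).

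The changes of ANKRD1 with TGFβ1 were less clear than its genotype difference. In WT it was lower at 6 h in all 4 series, with a change of -1.21 ± 0.55 that was not called (adjusted p = 0.132) and that was called with the series as a block (-1.10, adjusted p = 0.0456). At 72 h WT was back at its solvent level (0.07 ± 0.44). In mut it was 0.81 ± 0.26 higher at 72 h than in solvent (adjusted p = 0.021). This call was lost without series 1-2 (0.59, adjusted p = 0.183) and without any 1 of 4 libraries (mut solvent 1-2 or 65-2, mut 72 h 1-1 or 1-2, adjusted p from 0.062 to 0.0872), and without the mut 72 h library of series 65-2 the change was 1.13. The interactions were 0.92 ± 0.62, 0.73 ± 0.57 and 0.74 ± 0.51 at 6, 24 and 72 h, with adjusted p-values of 0.999, 0.487 and 0.374.

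LATS2 (chr13:20973036-21061586, minus strand), the kinase that inhibits YAP and is itself a YAP target, rose in WT clones, without a call in mut clones. WT libraries held 42.0, 39.99, 31.4 and 36.3 CPM in solvent, then 40.5, 44.4, 37.7 and 37.8 CPM at 6 h, 51.8, 48.5, 45.5 and 45.9 CPM at 24 h, and 60.2, 52.1, 49.2 and 54.8 CPM at 72 h. Mut libraries held 43.3, 47.1, 35.5 and 43.7 CPM in solvent, then 40.8, 42.8, 40.3 and 44.6 CPM at 6 h, 46.5, 41.0, 41.0 and 46.3 CPM at 24 h, and 46.8, 51.3, 38.8 and 37.0 CPM at 72 h. In WT the libraries of 24 and 72 h lay above all solvent libraries, whereas in mut all 4 states overlapped. The WT change was 0.37 ± 0.10 at 24 h (adjusted p = 0.00288) and 0.54 ± 0.10 at 72 h (adjusted p = 4.98e-05), and the mut change was 0.05 ± 0.10 and 0.04 ± 0.10. As an interaction the difference was -0.50 ± 0.14 at 72 h (adjusted p = 0.0185).

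The LATS2 interaction was lost without WT solvent replicate 2-1, the lowest library (-0.41, adjusted p = 0.0534). At 24 h it was -0.32 ± 0.14 (adjusted p = 0.163), and with the series as a block -0.31 (adjusted p = 0.0456). At 72 h LATS2 was lower in mut than in WT clones by a log2 difference of -0.32 ± 0.10 (adjusted p = 0.00944), and by -0.24 without mut 72 h replicate 65-2 (adjusted p = 0.0508). Between 6 and 24 h in WT, LATS2 rose by 0.26 ± 0.10 (adjusted p = 0.0461), a step in which 28.2% of all tested genes were called in either direction. That call was lost without any 1 of 6 libraries (WT 6 h 27-1, 2-1 or 2-2, WT 24 h 27-1, 27-2 or 2-2, adjusted p from 0.0567 to 0.135). It was also lost without all of series 27-2 (0.31, adjusted p = 0.0589).

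AMOTL2 (chr3:134355347-134375479, minus strand), an angiomotin family inhibitor and YAP target, also rose in WT clones without a call in mut clones. WT libraries held 119, 127, 91.3 and 82.5 CPM in solvent, then 113, 129, 104 and 109 CPM at 6 h, 134, 134, 119 and 119 CPM at 24 h, and 165, 137, 133 and 137 CPM at 72 h. Mut libraries held 112, 130, 105 and 153 CPM in solvent, then 99.5, 126, 108 and 124 CPM at 6 h, 120, 114, 108 and 130 CPM at 24 h, and 115, 137, 113 and 103 CPM at 72 h. In WT the libraries of clone 2 started lower than those of clone 27 and rose more, and at 72 h all WT libraries exceeded all WT solvent libraries. The WT change was 0.29 ± 0.12 at 24 h (adjusted p = 0.0489) and 0.46 ± 0.12 at 72 h (adjusted p = 0.00213), and the mut change was -0.07 ± 0.12 and -0.09 ± 0.12.

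For AMOTL2 the interaction at 72 h was -0.55 ± 0.17 (adjusted p = 0.0331), with all 4 mut series below all 4 WT series in their change. Leaving out any 1 of 8 of the 16 libraries of that comparison (WT solvent 2-1 or 2-2, WT 72 h 27-1, mut solvent 1-2 or 65-2, mut 72 h 1-1, 65-1 or 65-2) moved the adjusted p to between 0.0521 and 0.0891. The call at 24 h in WT was equally close to the threshold and was lost without WT solvent 2-1 or 2-2 or WT 24 h 27-1, 27-2 or 2-2 (adjusted p from 0.0515 to 0.234). Between mut and WT clones, AMOTL2 did not pass the test in solvent (0.26 ± 0.12), at 6 h (0.01 ± 0.12) or at 24 h (-0.10 ± 0.12). At 72 h the difference was -0.29 ± 0.12 (adjusted p = 0.0556), and it was called with TMM factors (-0.37, adjusted p = 0.0199). It was also called without mut 72 h replicate 1-2 (-0.37, adjusted p = 0.0222) and without series 27-2 (-0.31, adjusted p = 0.0485). The difference was smaller without mut 72 h replicate 65-2 (-0.23, adjusted p = 0.162) and without WT 72 h replicate 27-1 (-0.22).

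**Figure D2:**
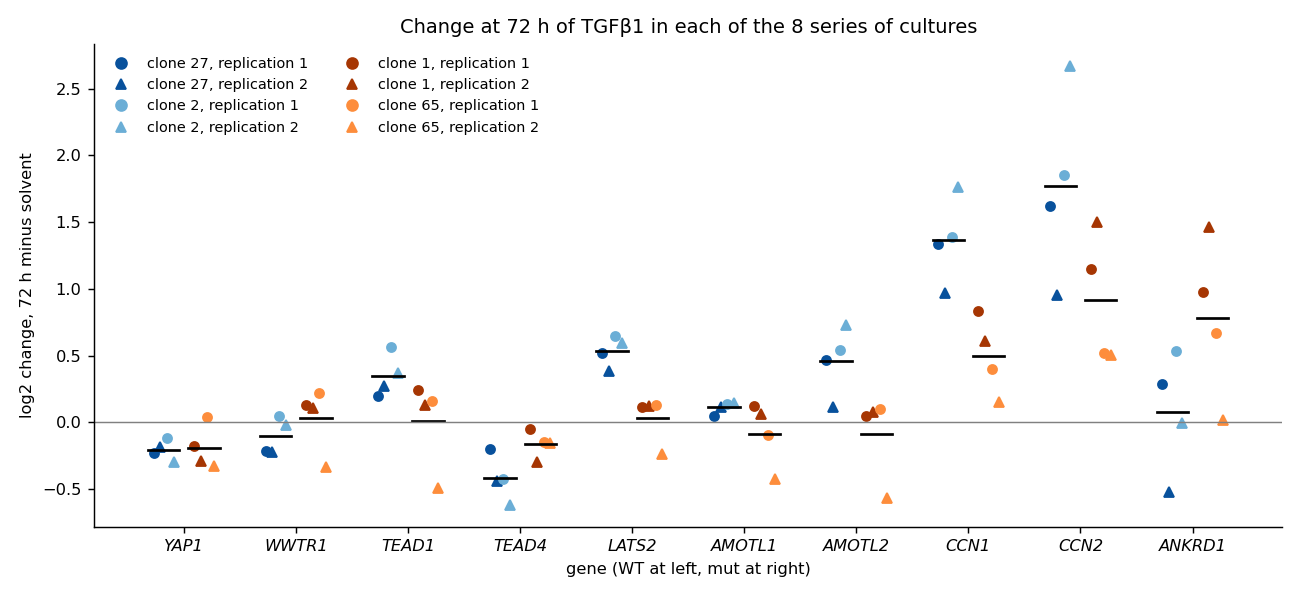
Log2 change from solvent to 72 h of TGFβ1 for each gene in each of the 8 series (WT at left, mut at right, colours and symbols as for the levels), with the mean as a bar. For LATS2, AMOTL2 and CCN1 all WT series lie above all mut series, and the mut series 65-2 is the lowest of the mut series for every gene but TEAD4.

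AMOTL1 (chr11:94706431-94876748, plus strand), another angiomotin family member, was not called for TGFβ1 in either genotype under library-size scaling, with changes between -0.08 and 0.11 on the log2 scale, 4 of which turned from negative to positive with TMM factors. It was lower in mut than in WT clones in each of the 4 states. The WT groups ranged from 197 to 208 CPM in solvent, then 175 to 204 CPM at 6 h, 189 to 200 CPM at 24 h and 214 to 228 CPM at 72 h, and the mut groups from 159 to 185, 156 to 191, 162 to 185 and 138 to 178 CPM. The groups overlapped at 6 h and not in the other states. The log2 differences were small, at -0.22 ± 0.07 in solvent (adjusted p = 0.0305), -0.20 ± 0.07 at 6 h (adjusted p = 0.0381), -0.19 ± 0.07 at 24 h (adjusted p = 0.0303) and -0.42 ± 0.07 at 72 h (adjusted p = 2.09e-05). The last was called without each single library, and without mut 72 h replicate 65-2 it was -0.33, whereas the calls in solvent, at 6 h and at 24 h were lost without any 1 of 4 (WT 27-1 or 2-2, mut 1-1 or 1-2), 6 (WT 27-2, 2-1 or 2-2, mut 1-1, 1-2 or 65-1) and 6 (WT 27-1, 2-1 or 2-2, mut 1-1, 1-2 or 65-1) libraries of the same state, with adjusted p-values between 0.0511 and 0.138. Without all of series 27-2 the differences in solvent and at 6 h were not called either (-0.234 and -0.195, adjusted p = 0.0543 and 0.0807). With TMM factors the WT change at 72 h was called (0.28, adjusted p = 0.00226).

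Of the transcription factors, TEAD4 fell and TEAD1 rose in WT clones. TEAD4 (chr12:2959330-3040676, plus strand) was at 29.4, 29.6, 26.8 and 27.4 CPM in WT solvent, at 26.9, 27.4, 21.8 and 20.7 CPM at 6 h, at 15.6, 21.0, 19.1 and 17.5 CPM at 24 h and at 25.6, 21.8, 20.0 and 17.9 CPM at 72 h. In mut it was at 31.4, 37.1, 33.3 and 32.9 CPM in solvent, at 30.2, 33.7, 34.1 and 34.3 CPM at 6 h, at 27.4, 30.7, 27.1 and 33.2 CPM at 24 h and at 30.3, 30.2, 30.0 and 29.5 CPM at 72 h. No mut library overlapped the WT libraries of its state, and in WT the libraries of 24 and 72 h lay below all solvent libraries. The WT change was -0.24 ± 0.10 at 6 h (adjusted p = 0.101, 0.0437 with the series as a block and 0.0484 without WT 6 h replicate 27-2), -0.64 ± 0.10 at 24 h (adjusted p = 7.43e-06) and -0.42 ± 0.10 at 72 h (adjusted p = 0.00106). The fall between 6 and 24 h in WT was -0.40 ± 0.11 (adjusted p = 0.00451). With TMM factors the changes at 24 and 72 h were -0.46 and -0.25, and both were called, whereas DESeq2 gave -0.23 at 72 h (adjusted p = 0.06).

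The mut changes of TEAD4 were smaller, at -0.02 ± 0.09, -0.19 ± 0.09 and -0.16 ± 0.09, and did not pass the test. TEAD4 was higher in mut than in WT clones at 6 h (0.47 ± 0.10, adjusted p = 0.000765), at 24 h (0.70 ± 0.10, adjusted p = 6.45e-06) and at 72 h (0.51 ± 0.10, adjusted p = 0.000187), while the difference of 0.25 ± 0.10 in solvent was not called (adjusted p = 0.0836). The interaction was called at 24 h (0.45 ± 0.14, adjusted p = 0.0377). With TMM factors it was 0.36 (adjusted p = 0.129), and it was lost without any 1 of 9 libraries, namely WT solvent 27-1 or 27-2, WT 24 h 27-1 or 2-2, mut solvent 1-1, 65-1 or 65-2 and mut 24 h 1-2 or 65-2 (adjusted p from 0.0508 to 0.108).

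TEAD1 (chr11:12674421-12944737, plus strand) ranged from 157 to 196 CPM in WT solvent, from 169 to 189 CPM at 6 h, from 185 to 210 CPM at 24 h and from 219 to 232 CPM at 72 h. All WT libraries of 72 h lay above all WT solvent libraries, and the change was 0.35 ± 0.10 (adjusted p = 0.00359). At 24 h the change was 0.15 ± 0.10 (adjusted p = 0.192), and 0.33 with TMM factors (adjusted p = 0.00636). In mut, TEAD1 ranged from 166 to 203 CPM in solvent and from 138 to 222 CPM at 72 h, with a change of 0.01 ± 0.10. At 72 h it was lower in mut than in WT clones by a log2 difference of -0.27 ± 0.10 (adjusted p = 0.0263). This rested on mut 72 h replicate 65-2, at 138 CPM, without which it was -0.13 (adjusted p = 0.201), and it was also lost without WT 72 h replicate 2-1 (adjusted p = 0.0638). The interaction at 72 h was -0.34 ± 0.14 (adjusted p = 0.106). It was called without mut 72 h replicate 1-2 (-0.43, adjusted p = 0.0289) and by DESeq2 (-0.41, adjusted p = 0.0391). Without mut 72 h replicate 65-2 it was smaller, at -0.20 (adjusted p = 0.241).

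The coactivators changed little. YAP1 (chr11:102110447-102233424, plus strand) was the most abundant of the 10 per kb in solvent and ranged from 328 to 367 CPM in WT solvent, from 274 to 332 CPM at 24 h and from 298 to 311 CPM at 72 h. Its change was -0.20 ± 0.07 at 24 h (adjusted p = 0.0108) and -0.21 ± 0.07 at 72 h (adjusted p = 0.0104) in WT and -0.19 ± 0.07 at 72 h in mut (adjusted p = 0.0378). The WT values are about the size of the median of all genes in WT, and the mut value compares with a median of -0.087 in mut. With TMM factors none of the 3 was called (-0.03, -0.04 and -0.11). Leaving out WT 24 h replicate 27-2 ended the call at 24 h (adjusted p = 0.0608), as did leaving out all of series 27-2 (-0.15, adjusted p = 0.101). The call in mut was lost without mut solvent 1-1, 1-2 or 65-2 or mut 72 h 1-1, 1-2 or 65-2 (adjusted p from 0.058 to 0.14). Between genotypes, YAP1 differed by 0.13 or less in all 4 states without a call, except that without mut 24 h replicate 1-2 the difference at 24 h was 0.18 (adjusted p = 0.0478). In mut at 6 h the change was -0.20 ± 0.07 (adjusted p = 0.0626), and it was called with the series as a block (adjusted p = 0.0402) and without mut solvent 65-1 or mut 6 h 1-2 (adjusted p = 0.0271 and 0.031).

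WWTR1 (chr3:149517235-149736714, minus strand), which encodes TAZ, overlaps an antisense gene, WWTR1-AS1, and the reads were counted from a kit that does not mark strand, so that its reads cannot be separated from those of its partner where both overlap. Counts assigned to WWTR1-AS1 did not exceed 0.267 CPM, against 69.6 to 109 CPM of WWTR1. TGFβ1 changed WWTR1 by between -0.12 and 0.03 on the log2 scale without a call, and 4 of these changes turned from negative to positive with TMM factors. It was lower in mut than in WT clones at 6 h (94.5 ± 7.41 CPM in WT, 78.1 ± 6.13 CPM in mut, -0.28 ± 0.08, adjusted p = 0.0138) and at 24 h (97.4 ± 5.12 and 80.2 ± 4.19 CPM, -0.28 ± 0.08, adjusted p = 0.0078), with no overlap of libraries. In solvent the difference was -0.21 ± 0.08 (adjusted p = 0.0921), and at 72 h -0.07 ± 0.08, where series 65-2 stood at 69.6 CPM and the other 3 mut series between 89.4 and 95.5 CPM. The call at 6 h was lost without WT 6 h replicate 2-2 or mut 6 h replicate 65-1 (adjusted p = 0.0584 and 0.0651).

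Counted over the 10 genes, the genotype differences were in both directions. In solvent 2 genes were higher in mut (CCN2, ANKRD1) and 1 lower (AMOTL1), where 6.38% of all tested genes were called higher and 6.32% lower. At 6 h 3 were higher (CCN2, ANKRD1, TEAD4) and 2 lower (AMOTL1, WWTR1), against 11.3% and 10% of all genes (2 and 2 with TMM factors, against 10.5% and 10.9%), and at 24 h 2 were higher (ANKRD1, TEAD4) and 2 lower (AMOTL1, WWTR1), against 24.7% and 12.2%. At 72 h 2 were higher (ANKRD1, TEAD4) and 4 lower (CCN1, AMOTL1, LATS2, TEAD1), where 26% of all genes were called higher and 13.2% lower. As interactions, 0 of the 10 were called at 6 h with limma-voom, the quasi-likelihood test of edgeR or DESeq2, and 0 had an unadjusted p under 0.05, when 0.00673% of all genes were called higher and 0.0673% lower. At 24 h 1 was called higher and 0 lower (background 7.72% and 1.93%), and at 72 h 0 were higher and 2 lower (9.4% and 2.92%). At 72 h the series block gave 4 lower (CCN1, CCN2, AMOTL2, LATS2) and at 24 h 1 higher and 1 lower. The shares above are from the fit without this block and are no background for these counts. The median interaction of the 10 genes at 72 h was -0.27, beside 0.10 over all genes. Stepwise, 2 genes changed between 6 and 24 h in WT (LATS2, TEAD4), a step with 28.2% of all genes called. Between 72 and 24 h in WT, 24 and 6 h in mut, and 72 and 24 h in mut, 0 of the 10 were called by limma-voom, the quasi-likelihood test of edgeR or DESeq2, where 7.83%, 3.12% and 1.31% of all genes were called by limma-voom. An unadjusted p under 0.05 was given for 2, 0 and 1 of them. With the series as a block, CCN1 was called from 24 to 72 h in WT (0.50, adjusted p = 0.00828), ANKRD1 from 24 to 72 h in mut (0.80, adjusted p = 0.00697) and CCN2 from 6 to 24 h in WT (0.46, adjusted p = 0.0462). Without mut 72 h replicate 65-2, ANKRD1 rose by 1.08 from 24 to 72 h in mut (adjusted p = 0.00498). Without series 27-2, CCN1 rose by 0.55 from 24 to 72 h in WT (adjusted p = 0.0432).

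The clone is the independent unit of a genotype, and when the 2 replications of each clone were summed, fewer of these calls were made. In that setting 0 of the 10 genes were called in mut at 6 and 72 h, between genotypes in solvent, or as interactions. With 6 genes called in WT at 72 h, 4 in WT at 24 h and 4 between genotypes at 72 h, the rise of CCN2, CCN1, LATS2, AMOTL2 and TEAD1 and the fall of TEAD4 in WT at 72 h and the higher ANKRD1 and TEAD4 and lower CCN1 and AMOTL1 of mut clones at 72 h were retained. The share of all genes called with clone sums is not given. It thus cannot be read whether the 10 genes lost calls more often than other genes. When only the groups of a comparison were fitted, the interactions of AMOTL2 and LATS2 at 72 h had adjusted p-values of 0.0881 and 0.0684, the differences of CCN2 in solvent and at 6 h 0.059 and 0.0634, and those of AMOTL1 at 6 h and of LATS2 and TEAD1 at 72 h 0.112, 0.0511 and 0.121. In the same setting the changes of ANKRD1 and YAP1 at 72 h in mut (0.108 and 0.0906) and of AMOTL2 at 24 h in WT (0.0937) were not called. Calls gained there were the changes of CCN1 at 24 and 72 h in mut (0.000467 and 0.0094) and the differences between genotypes of CCN2 at 24 h (0.0188) and AMOTL2 at 72 h (0.0444).

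Among 23 further Hippo pathway regulators, of which 22 were tested, 8 were higher and 3 lower in WT at 72 h (background 13.9% and 38.4%), and in mut 1 was higher and 1 lower (background 7.81% and 16.3%). FRMD6, an upstream activator of the kinase cascade, was at 118 ± 20.2 CPM in WT solvent and 275 ± 26.0 CPM at 72 h (log2 fold change 1.23 ± 0.13, adjusted p = 5.95e-09), and it rose in mut by 0.75 ± 0.13 (adjusted p = 6.54e-05). VGLL3, a TEAD cofactor, rose in WT from 69.1 ± 20.5 to 141 ± 27.9 CPM (1.04 ± 0.21, adjusted p = 0.000128), whereas in mut it was at 83.8 ± 6.22 and 89.6 ± 21.3 CPM, with an interaction of -0.97 ± 0.29 (adjusted p = 0.0276). TEAD3 rose by 0.68 ± 0.09 in WT (adjusted p = 4.87e-07) with an interaction of -0.46 ± 0.13 (adjusted p = 0.019), and TEAD2 by 0.29 ± 0.05 (adjusted p = 6.14e-05) with an interaction of -0.34 ± 0.08 (adjusted p = 0.00344). Thus, of the 4 TEAD genes, TEAD1, TEAD2 and TEAD3 were higher and TEAD4 lower in WT at 72 h. TEAD2 overlaps CD37, which did not exceed 2.31 CPM. The VGLL3 interaction was lost without any 1 of 7 libraries (WT solvent 27-2 or 2-2, WT 72 h 27-1, 2-1 or 2-2, mut solvent 1-2, mut 72 h 65-2, adjusted p from 0.051 to 0.0653) and that of TEAD3 without mut solvent 65-2 (adjusted p = 0.055).

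In this regulator list 1 gene was higher and 2 were lower in mut than in WT clones in solvent (background 6.38% and 6.32%), and 1 was higher and 9 lower at 72 h (26% and 13.2%). With TMM factors the latter were 1 higher and 14 lower, against 18.7% and 17.8% of all genes. The interaction at 72 h was called for VGLL3, TEAD3 and TEAD2, all 3 lower in mut (background 9.4% higher and 2.92% lower). The median log2 fold change of the list at 72 h was 0.11 in WT and -0.05 in mut, beside -0.19 and -0.087 over all genes. The series block gave 4 regulators higher and 3 lower in mut at 72 h and 6 called interactions, all lower. The share of all genes called in that fit is not given. TMM factors gave 12 higher and 0 lower in WT at 72 h, against 21.5% and 23.3% of all genes, so that the 3 decreases under library-size scaling were not called with that scaling.

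Of 17 further YAP targets, 11 were higher and 2 lower in WT at 72 h (background 13.9% and 38.4%), and in mut 8 were higher and 3 lower (background 7.81% and 16.3%). The list median was 0.36 in WT and 0.21 in mut. CCDC80, a matrix protein gene, rose from 13.99 ± 5.61 to 143 ± 31.4 CPM in WT (3.41 ± 0.28, adjusted p = 1.13e-10) and from 10.5 ± 4.46 to 69.9 ± 18.4 CPM in mut (2.79 ± 0.29, adjusted p = 7.2e-08). NT5E, which encodes the ecto-5′-nucleotidase CD73, rose by 1.60 ± 0.22 in WT (adjusted p = 6.5e-07) and by 1.73 ± 0.22 in mut (adjusted p = 1.14e-06), from 323 ± 111 CPM in WT solvent and 125 ± 44.5 CPM in mut solvent. IGFBP3, which encodes a binding protein of insulin-like growth factors, rose by 2.11 ± 0.47 in WT (adjusted p = 0.000426) and by 1.57 ± 0.47 in mut (adjusted p = 0.0145) at levels under 5 CPM, and the mut call was lost without mut solvent 1-1 or 65-1 (adjusted p = 0.0509 and 0.0524). None of these 3 had a called interaction at 72 h, with -0.62 ± 0.40 for CCDC80, 0.13 ± 0.31 for NT5E and -0.54 ± 0.66 for IGFBP3.

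Called interactions at 72 h were present for 3 of the 17 targets, all lower in mut, where 9.4% of all genes were called higher and 2.92% lower. RBMS3, an RNA-binding protein gene, started higher in mut (25.1 ± 3.89 CPM against 14.6 ± 0.621 CPM in WT solvent) and fell to 17.7 ± 1.68 CPM, with an interaction of -0.60 ± 0.15 (adjusted p = 0.00897). PTPN14, a phosphatase that restrains YAP, rose by 0.23 ± 0.10 in WT (adjusted p = 0.0478) and fell by 0.30 ± 0.10 in mut (adjusted p = 0.0216), with an interaction of -0.53 ± 0.14 (adjusted p = 0.0104). ARHGEF17, a RhoA exchange factor gene, rose by 0.36 ± 0.08 in WT (adjusted p = 0.000196) and was at -0.05 ± 0.08 in mut, with an interaction of -0.42 ± 0.11 (adjusted p = 0.0102). The 2 single changes of PTPN14 lay close to the threshold. The WT call was lost without WT solvent 2-1 or 2-2 or any 1 WT library of 72 h (adjusted p from 0.0503 to 0.175), and the mut call without mut solvent 1-2 or 65-2 or mut 72 h 65-2 (adjusted p from 0.0522 to 0.124) and with TMM factors (adjusted p = 0.108). Between genotypes, 2 targets were higher and 4 lower in mut in solvent (background 6.38% and 6.32%), and 3 were higher and 6 lower at 72 h (26% and 13.2%). With the series as a block, the interactions called at 72 h were 1 higher and 5 lower, without a share of all genes for that fit.

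**Figure D3:**
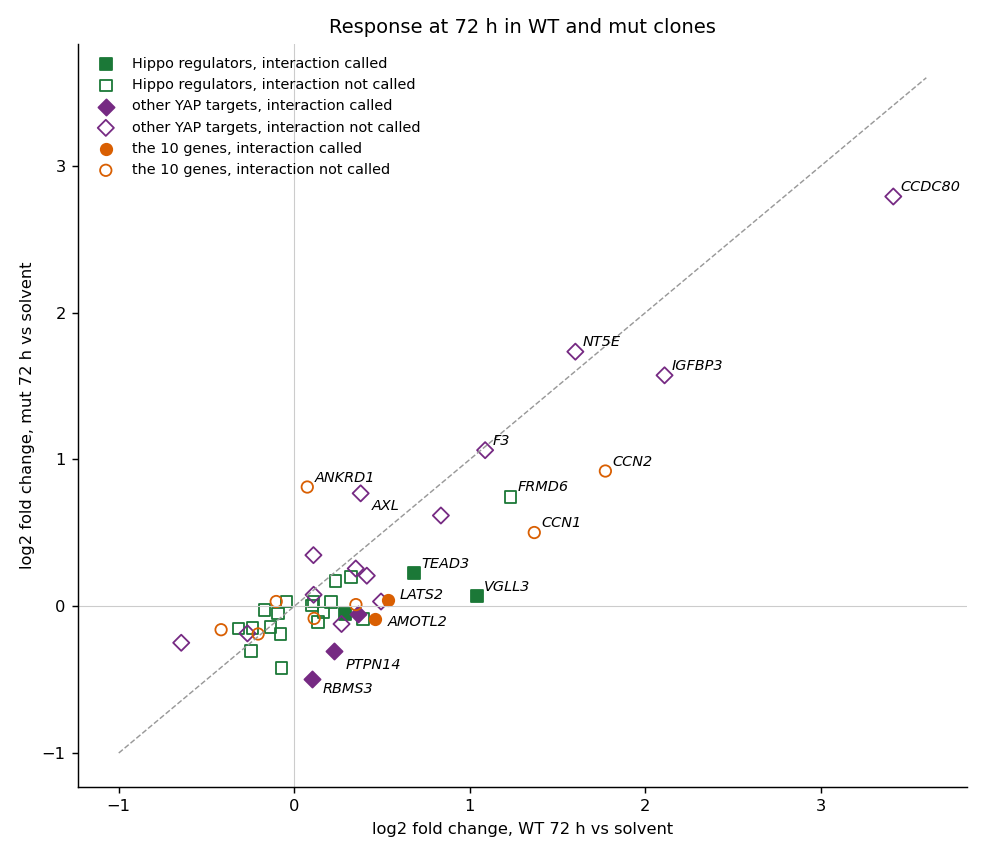
Log2 fold change at 72 h in WT (horizontal) and mut clones (vertical) for the 10 genes (circles), the further Hippo regulators (squares) and the further YAP targets (diamonds) with a mean of at least 1 CPM. The dashed line marks equal changes and filled symbols a called interaction, including the unlabelled TEAD2 and ARHGEF17 beside AMOTL2. CCN1, CCN2, VGLL3, TEAD3, LATS2 and AMOTL2 lie below the line, and NT5E and F3 lie near it.

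Genes with the most similar course were sought by Pearson correlation of log2 CPM over the 32 libraries among 9645 named genes with a mean of at least 10 CPM. These values are descriptions, since the libraries share clones, treatments and scaling. For CCN2 they were THBS1 (r = 0.938), GADD45B (0.925) and JUN (0.908), and for CCN1 ENC1 (0.886), ARHGEF10 (0.883) and UAP1 (0.868). ANKRD1 was most like PCDH7 (0.930), MAMLD1 (0.835) and KRT80 (0.828). LATS2 was most like NUMB (0.840), AMOTL2 (0.838) and AFAP1 (0.833), so that another of the 10 genes was among its nearest. TEAD4 was most like MAP2K3 (0.933), RHNO1 (0.933) and KCNK5 (0.928).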

How the data were processed

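RNA-seq reads of 32 MCF10A libraries were processed by the authors, who trimmed with Trimmomatic and used STAR for alignment to Ensembl GRCh38 and for counting. The deposited values are raw counts per gene and library, without normalization. Tool versions of that processing and the counting strand are not given in the sources used here, and the library kit named in the study does not keep strand. Ensembl identifiers were matched to GENCODE release 44 symbols (17763 of 17788), with 0 columns left unused. Groups were taken from the labels.

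Low-count genes were removed with the filterByExpr function (edgeR 4.0.16, minimum count 10 and minimum total 15), and the others were fitted with voom and limma 3.58.1 in R 4.3.3, with library-size scaling and a model with 1 mean per group over all 32 libraries, as in the study. The filter, the interaction (mut change minus WT change) and the steps between times were chosen here. Tests were two-sided, and a gene was called at an adjusted p-value (Benjamini-Hochberg over all 14865 genes) under 0.05, with no minimum fold change. Every adjusted p in the text is from this test unless another setting is named. Log2 fold changes carry the standard error of the model and use the voom prior count of 0.5. Levels per kb used the union of GENCODE exons.

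The 10 genes, the further lists and the tests were chosen with earlier results of these data known. All 10 genes are described in every comparison. From each further list the 3 genes with the largest change among those called in WT at 72 h and the 3 with the largest called interaction at 72 h were named, given a mean of at least 1 CPM. The 3 most correlated genes were named for CCN1, CCN2, ANKRD1, LATS2 and TEAD4.

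Replicate libraries differed beyond counting noise (chi-square per degree of freedom of at least 10.5), so each counted as 1 sample. The series (1 clone in 1 replication) pairs the 4 states by clone and by replication, as labelled. Deviations from group means correlated between libraries of a series with a mean r of 0.503 over 48 pairs (range -0.064 to 0.865). A floor of 3 counts corresponds to between 0.0549 and 0.0756 CPM and covers counting error only.

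Alternatives were TMM factors, the quasi-likelihood test of edgeR, DESeq2 1.42.0, all genes unfiltered, a stricter filter (mean count 50 or more), fits of the compared groups only, a block by replication number or by series, sums per clone, and leaving out a series or each library. TMM factors together with the series block were added after the data had been examined. Promoter windows came from RefSeq (GRCh38.p14).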

Additional observations from a re-analysis of the deposited data

Results flagged for a closer look

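In 5 of 80 groups of 4 libraries (10 genes in 8 groups), the highest or lowest library stood apart from the other 3 by Dixon's test on log2 CPM (95% critical value), which chance does in about 1 of 20 groups. For CCN1 the WT 6 h library of series 27-2 stood at 151 CPM. For AMOTL2 and WWTR1 the WT 72 h library of series 27-1 was the highest at 165 CPM and the lowest at 85.0 CPM. For TEAD1 the mut 6 h library of series 65-1 was the lowest at 151 CPM, and for TEAD4 that of series 1-1 was the lowest at 30.2 CPM.

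The response to TGFβ1 differed between mut and WT clones by the test of the interaction for 3 of the 10 genes. These were AMOTL2 at 72 h (log2 interaction -0.55), LATS2 at 72 h (-0.50) and TEAD4 at 24 h (0.45). Of all genes, 9.4% had a higher and 2.92% a lower called interaction at 72 h, and 7.72% and 1.93% at 24 h. All 3 calls were lost with clone sums (adjusted p = 0.107, 0.119 and 0.163), and that of TEAD4 also with TMM factors (0.129), the quasi-likelihood test of edgeR (0.144) and DESeq2 (0.112).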

How the results depend on the processing

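Of 170 estimates for the 10 genes, 17 turned sign with TMM factors, of which 0 were called in either setting and the largest was 0.103 in size on the log2 scale with library-size scaling. Of the 94 results for single genes that were called in at least 1 setting, none changed direction under the alternatives run, and 85 kept their side of the threshold with TMM factors, 85 with the quasi-likelihood test of edgeR, 82 with DESeq2, 90 without the low-count filter, 94 with the stricter filter, 79 with the compared groups only, 93 with the replication number as a block and 67 with clone sums. Where 1 replicate was left out, 763 of 864 fits stayed on the side of the threshold of the main fit, called or not called. With the series as a block, which pairs the states of 1 culture series, 13 of 63 results became called and 0 were lost.

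The number of the 10 genes called at 6 h in WT (1) was 2 with DESeq2, 4 with the series as a block, 2 without series 27-2 and 2 with TMM factors and the series block together. In mut, the 1 gene at 6 h became 3 with the series block, 0 with clone sums and 2 with TMM factors and the block. The 1 gene at 24 h became 2 with the compared groups only, with the series block, and with TMM factors and the block. The 3 genes at 72 h became 0 with clone sums and 0 without series 1-2. Between genotypes, the 3 genes in solvent became 0 with clone sums, and the 5 at 6 h became 3 with the compared groups only and 3 with clone sums. The 1 interaction at 24 h became 0 with TMM factors, the quasi-likelihood test, DESeq2, clone sums and without series 1-2, 2 with the series block, and 3 with TMM factors and the block. The 2 interactions at 72 h became 0 with the compared groups only and with clone sums, 4 with the series block and without series 27-2, and 5 with TMM factors and the block.

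For the further Hippo regulators at 72 h in mut (2), TMM factors, the quasi-likelihood test and DESeq2 gave 5, the replication block 4, the series block 7, and TMM factors with the block 6. DESeq2 gave 16 instead of 10 between genotypes at 72 h. Of interactions at 72 h (3), DESeq2, the series block and TMM factors with the block gave 6, and clone sums 0. For the further YAP targets, interactions at 72 h (3) became 5 with TMM factors, the quasi-likelihood test, DESeq2, without series 27-2 and with TMM factors and the block, 6 with the series block, and 1 with clone sums. Shares of all genes called were given above only for library-size scaling and, in part, for TMM factors. The counts of the other settings thus have no background beside them. The causes of these changes in count were not tested. With clone sums the number of samples was also smaller, and its part in the lost calls was not tested.

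Leaving out 1 library gave between 1 and 2 of the 10 genes at 6 h and between 3 (without WT 24 h 27-2) and 6 at 24 h in WT. It gave 0 to 2 at 6 h and 1 to 3 at 72 h in mut, 2 to 5 between genotypes at 6 h, 0 to 1 and 0 to 4 interactions at 24 and 72 h, and 3 to 5 Hippo regulators between genotypes in solvent. Depth limited ANKRD1 in WT, with as few as 8 counts in 1 library.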
